A study of Mus musculus with 57 samples.

Results

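Of 57 single cells from the renal vesicles of newborn mouse kidney, 50 carried Pax8 at an RPKM of 5 or more, and 22 of these 50 have no column in the authors' deposited table that contrasts a proximal with a distal class of vesicle cells. The other 28 Pax8-positive cells do have one. The 22 left-out cells are called outside cells here and the 28 others inside cells. RPKM corrects the reads of a gene for its length and for the depth of its library. Both groups were chosen by measured values, namely Pax8 and the authors' choice of cells for their class table, whose criteria are not given in the sources used here. All levels below come from the deposited table of 12087 genes in all 57 cells.

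Every cell came from 1 pool of 2 kidneys of Tg(Crym-EGFP)GF82Gsat mice at postnatal day 4, on a mixed strain background with the sex unknown for nearly all cells. These mice carry a bacterial artificial chromosome that expresses EGFP under the control of Crym, a gene of early nephron lineage cells, and cells sorted by flow cytometry were loaded on a Fluidigm C1 chip, where a microscope showed which chambers had caught 1 cell. Inside and outside cells thus share genotype, age, pool and sequencing lane, and are split here by whether the class table holds them. The kidney that each cell came from is not recorded. Cells of 1 pool are not replicates of a condition, so differences are given with their spread over cells and without a test. Crym itself was detected, at RPKM 1 or more, in 3 of 22 outside and 4 of 28 inside cells.

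The renal vesicle is the first epithelial stage of the nephron, formed when cap mesenchyme cells stop self-renewing and acquire apical and basal sides. It is already regionalised. Its proximal side expresses Wt1 and gives rise to podocytes, the filter cells of the glomerulus, while its distal side expresses Sox9, Pou3f3 and the Notch ligands Dll1 and Jag1 and gives rise to tubule segments. Pax8 is a transcription factor switched on as the vesicle forms and kept on in much of the later nephron epithelium.

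The lowest Pax8 level among the members was RPKM 10.7, in inside cell 50, followed by 15.8 in outside cell 54. The 2 cells nearest below the threshold had 1.99 and 1.71, so the 7 cells set aside were far from it. Pax8 ran from 15.8 to 1160 (median 338) in outside cells and from 10.7 to 1127 (median 287) in inside cells. The ranges overlapped over nearly their whole length.

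The library measures were alike in both groups. Outside cells had 2857 to 6502 genes detected (median 4323) and inside cells 2809 to 5713 (median 4388). The 50 most abundant genes held a median of 22.2% of the summed RPKM in outside and 22.9% in inside cells. Depth, estimated from the smallest steps in the values, had a median of about 1500000 reads in outside cells (472000 to 2190000) and 1490000 in inside cells (510000 to 2280000). At RPKM 20, the level at which a gene is called positive below, Wt1 rested on at least 31.8 reads in every one of the 50 cells. Reads carry no molecular identifiers, so intervals on shares cover the counting of cells alone.

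Cells were first placed by Wt1 on the proximal side and by Sox9 or Pou3f3 on the distal side. Most outside cells were proximal by this measure. Wt1 alone was positive in 16 of 22 outside cells (72.7%, exact Clopper-Pearson 95% interval 49.8% to 89.3%) and in 17 of 28 inside cells (60.7%, 40.6% to 78.5%). Sox9 or Pou3f3 alone was positive in 2 of 22 outside cells (9.09%, 1.12% to 29.2%) against 10 of 28 inside cells (35.7%, 18.6% to 55.9%). Both sides were positive together in 2 of 22 outside cells (9.09%) and in 0 of 28 inside cells (interval 0% to 12.3%). Neither was positive in 2 outside cells and 1 inside cell. All 4 pairs of intervals overlap. Wt1, Sox9 and Pou3f3 are themselves class genes, with deposited folds of 96.1, -131.1 and -30.75. The states are thus not independent of the class table, and the counts describe the cells without testing them.

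A wider distal definition adds Papss2, which makes the cell's sulphate donor, Dll1, and Dkk1, a secreted Wnt inhibitor. These genes were added after the values were seen. Papss2, Dll1 and Dkk1 also have distal folds of -219.6, -88.4 and -48.7 in the authors' deposited table. With them, Wt1 and a distal gene were positive together in 7 of 22 outside cells (31.8%, 13.9% to 54.9%) and in 2 of 28 inside cells (7.14%, 0.88% to 23.5%). Distal genes alone were positive in 3 of 22 outside cells (13.6%, 2.91% to 34.9%) and 11 of 28 inside cells (39.3%, 21.5% to 59.4%). Outside cells held 7 of the 9 cells positive for both sides, with intervals that overlap those of inside cells.

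Each cell was also scored on the 787 genes of the class table, as the mean log2(RPKM + 1) of the 436 genes the authors list as higher in the proximal class minus that of the 351 listed as higher in the distal class. Inside cells fell into 12 cells at -1.18 or lower and 16 cells at 1.63 or higher. All 22 outside cells lay in the empty stretch between, from -0.78 in cell 41 to 1.58 in cell 27, with a median of 0.88. This gap is no independent finding, since the authors chose the genes on the inside cells alone and the choice itself widens the distance between those cells. A score of 0 is no border between the classes, since the 7 cells below the Pax8 threshold scored 0.23 to 0.67. Cell 41 had both scores raised, with a proximal score of 2.79 and a distal score of 3.57. Others had both scores low, such as cell 44 with 1.91 and 1.05 and cell 37 with 2.02 and 1.17, and these cells had 2857 and 3053 genes detected.

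**Figure D1:**
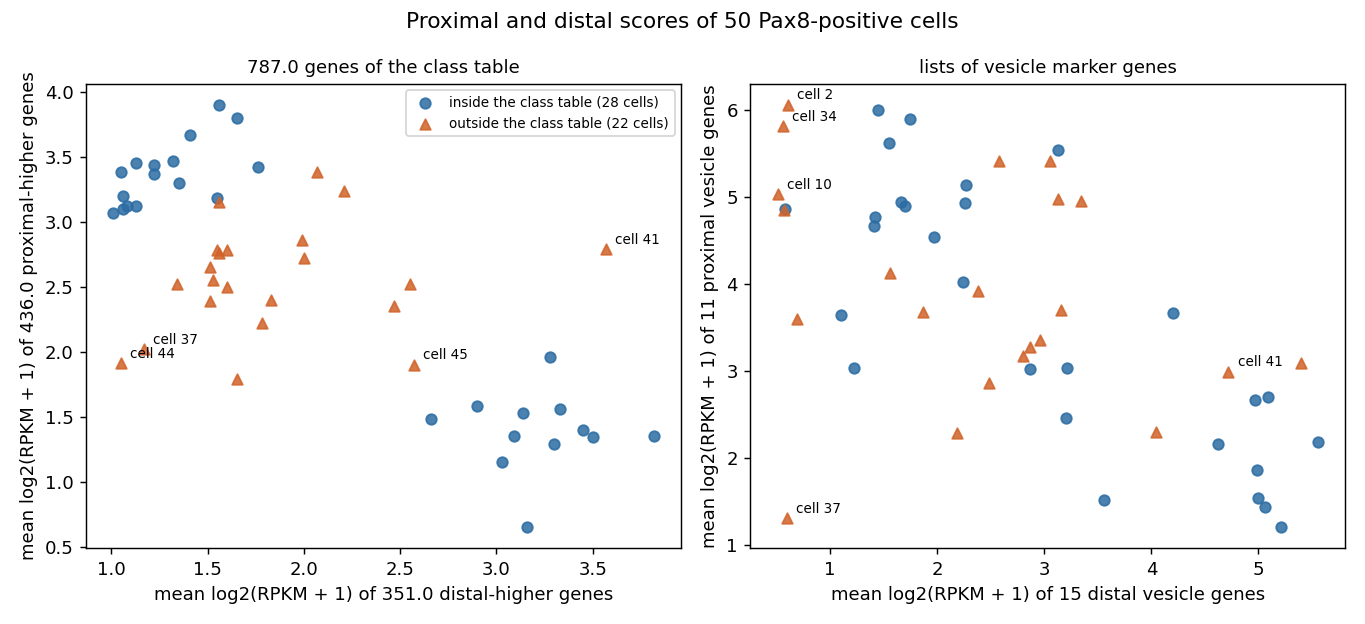
Each point is 1 of 50 Pax8-positive cells, with the mean log2(RPKM + 1) of distal genes on the horizontal axis and of proximal genes on the vertical axis, for the 787 class genes (left) and for the lists of vesicle markers (right). On the left the 22 outside cells (triangles) lie between the inside cells (circles), whose separation follows from the choice of genes. On the right the outside cells spread over most of the inside range, and cells 2 and 34 have the highest proximal minus distal score.

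Lists of known vesicle markers, drawn up with earlier results of these data known, gave another picture. The lists hold 11 proximal vesicle genes (among them Wt1, Tcf21, Foxc2 and Tmem100) and 15 distal vesicle genes (among them Sox9, Pou3f3, Jag1, Dll1 and Lhx1), of which 7 and 10 are class genes too. On the difference between these lists, outside cells ran from -2.32 to 5.45 (median 1.58) and inside cells from -4.01 to 4.55 (median 1.8). Outside cells 2 and 34, at 5.45 and 5.25, lay above every inside cell, and cell 10 reached 4.52. Only inside cells lay below -2.32. Between -0.86 and 2.3, which is the central one of 3 equal stretches of the whole range, lay 11 of 22 outside cells (50.0%, 28.2% to 71.8%) and 6 of 28 inside cells (21.4%, 8.3% to 41.0%).

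The most distinct state among the outside cells was one of advanced podocyte expression, in cells 2, 10 and 34. Wt1 stood at RPKM 1382, 1020 and 865 in these cells, while the highest inside cell had 560. Synpo, an actin-binding protein of podocyte foot processes, stood at 142, 77.3 and 56.6, and no other Pax8-positive cell was above 0.227. Podxl, the sialomucin that coats podocytes, stood at 51.3, 66.5 and 16.6, against at most 2.19 elsewhere. Synpo and Podxl are also the genes by which these cells were singled out, after the values were seen.

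Other podocyte membrane genes were divided among the podocyte-like cells. Nphs1, which encodes the slit diaphragm protein nephrin, stood at 27.9 in cell 2, 24.8 in cell 10 and 0 in cell 34. The receptor phosphatase Ptpro stood at 138, 74.6 and 265 in the same order, against at most 21.7 in the other 47 cells. Of 19 podocyte genes with a row, 9 to 11 were positive in these cells, 1 to 6 in the other 19 outside cells and 0 to 5 in the inside cells. Synpo and Podxl, by which these cells were singled out, are among the 19 genes, so the count restates that choice in part.

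A regulator and matrix genes of the glomerulus were high in the same cells. Tcf21, a transcription factor of podocytes and kidney mesenchyme, stood at 138 in cell 2, 892 in cell 10 and 1474 in cell 34, with an inside maximum of 512. Col4a4, a collagen IV chain of the mature glomerular basement membrane, stood at 3.41, 61.6 and 72.9, against at most 1.98 in the other Pax8-positive cells. Itga3, the laminin-binding integrin subunit of podocytes, stood at 174 in cell 2 and 152 in cell 10, but at 0.122 in cell 34.

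Cell-cycle transcripts were sparse in these cells. Of 20 S-phase genes, 2 or 3 were positive per cell, against a median of 12 (3 to 18) in the other outside cells and 12.5 (1 to 17) in inside cells. Of 22 genes of G2 and mitosis, 0 to 2 were positive, against medians of 11 (0 to 20) and 9 (0 to 20). Rrm2, a subunit of ribonucleotide reductase, stood at 0, 1.59 and 1.46, with a median of 262 in the other 47 cells. Btg2, an antiproliferative gene, stood at 1534, 1370 and 1585, and no other Pax8-positive cell was above 196. Few S-phase genes were also positive in some cells with fewer podocyte genes, such as inside cell 7 (1 S-phase and 2 podocyte genes) and outside cell 29 (3 and 4).

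**Figure D2:**
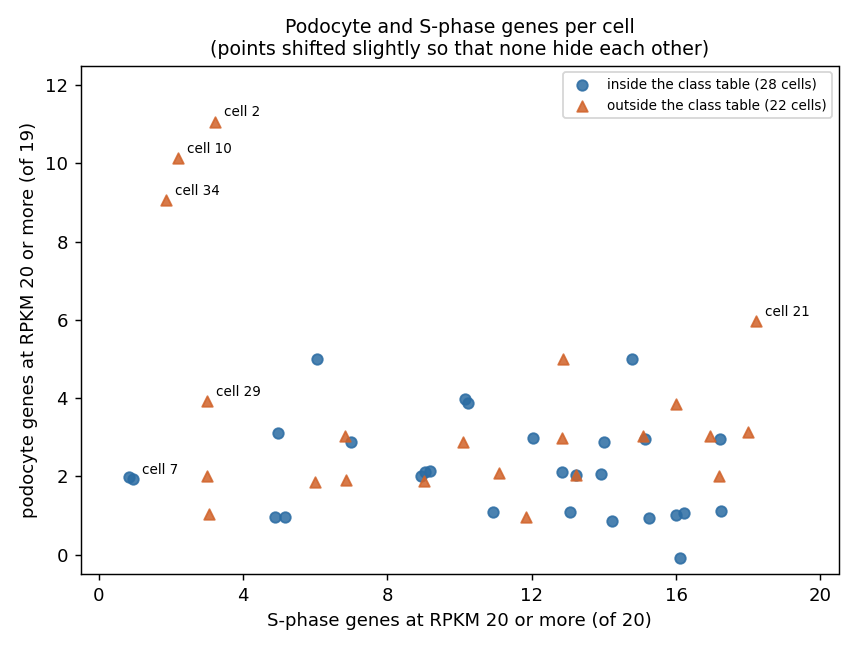
Each point is 1 of 50 Pax8-positive cells, with the number of S-phase genes at RPKM 20 or more on the horizontal axis and the number of podocyte genes at RPKM 20 or more on the vertical axis. Cells 2, 10 and 34 stand alone with 9 to 11 podocyte genes and 2 or 3 S-phase genes, and no inside cell has more than 5 podocyte genes.

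Clustering of the 50 cells on their 500 most variable genes into 4 clusters set cells 2, 10 and 34 apart as the single cluster without an inside cell. Among its leading genes were Btg2, Cxx1c, Npl, Sepp1, Snora70, Acad8 and St3gal5. The other clusters mixed the groups. One led by Pbk, Mcm4 and Rrm2, genes of dividing cells, held 13 inside and 11 outside cells. One led by Dkk1, Dll1, Papss2 and Sox9 held 11 inside and 4 outside cells (9, 30, 45 and 47). One led by Cxcr7, Txnip and H19 held 4 of each. With 1000 variable genes or with 3 clusters, cells 2, 10 and 34 no longer formed a cluster without inside cells.

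Rank correlations over all genes that passed the filter were much the same within and between the groups, with all 22 outside cells included. Spearman's rho had a median of 0.345 within outside pairs, 0.366 within inside pairs and 0.356 between the groups, as a description of cells from 1 pool. Among the 5 most alike cells of each outside cell, 60 of 110 were inside cells (54.5%), and inside cells make up 57.1% of the 49 candidates. Cells 2, 10 and 34 correlated with each other at 0.366 to 0.406 and with the other 47 cells at 0.241 to 0.356.

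A larger set of outside cells carried Wt1 with little Tmem100, a transmembrane protein whose authors' deposited fold of 172.9 is the largest of the proximal class. Among Wt1-positive cells, Tmem100 was positive in 15 of 17 inside cells and 5 of 18 outside cells. Its level ran from 0.461 to 812 (median 285) in the former and from 0 to 813 (median 1.49) in the latter. The 13 outside cells with Wt1 and without Tmem100 were cells 2, 10, 14, 27, 28, 29, 30, 34, 36, 43, 44, 49 and 57, or 59.1% of all outside cells (36.4% to 79.3%). The 2 such inside cells were 23 and 38 (7.14%, 0.88% to 23.5%).

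Wt1 itself did not separate these sets. It ran from 29.2 to 1382 (median 197) in the 18 Wt1-positive outside cells and from 21.5 to 560 (median 193) in the 17 inside cells. The reverse combination, Tmem100 without Wt1, occurred in outside cells 37, 45 and 47 and in 0 of 28 inside cells. Tmem100 had levels of 361, 156 and 22.6 there, with Wt1 at 0.833, 0.593 and 10.9. Since Tmem100 is a class gene, its level in inside cells is part of what listed it, and the comparison describes the cells without testing them.

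**Figure D3:**
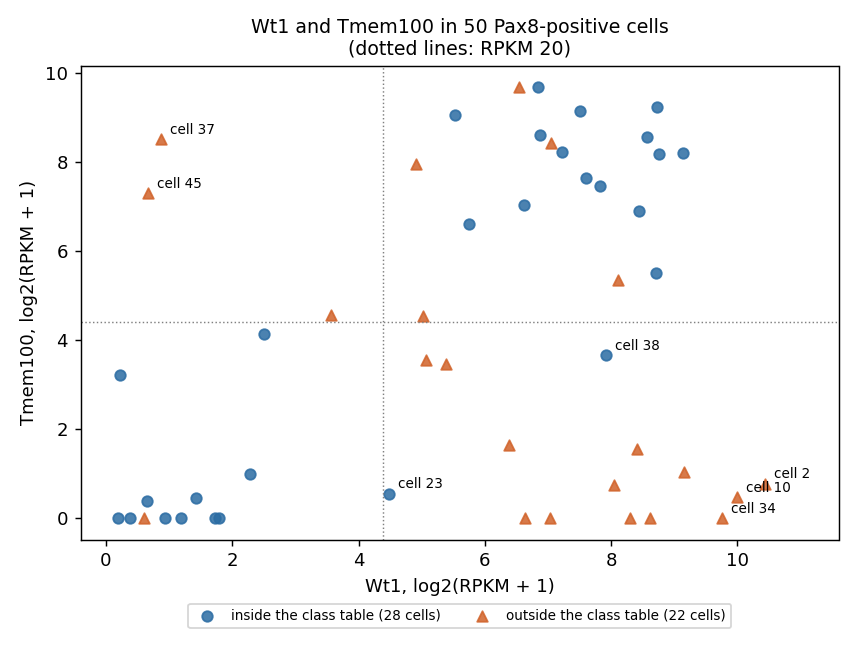
Each point is 1 of 50 Pax8-positive cells, with Wt1 on the horizontal and Tmem100 on the vertical axis, both as log2(RPKM + 1), and dotted lines at RPKM 20. Of the Wt1-positive cells at the right, 15 of 17 inside cells (circles) lie above the Tmem100 line and 13 of 18 outside cells (triangles) lie below it.

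H19, an imprinted long noncoding RNA, is a proximal class gene with a fold of 114.5 in the authors' deposited table, chosen on the inside cells. Its median was 39.2 (0 to 552) in Wt1-positive outside cells and 312 (0 to 2845) in Wt1-positive inside cells. The mean log2(RPKM + 1) was 5.16 (SD 3.26, n = 18 cells) against 7.88 (SD 2.55, n = 17 cells), a difference of -2.73. Without cells 2, 10 and 34 the difference was -1.93. Not every Tmem100-low outside cell was low in H19, which stood at 274 in cell 14, 535 in cell 27, 552 in cell 29 and 492 in cell 44. Pmp22, a membrane protein with the authors' deposited fold of 65.0, had medians of 167 and 348 and differed by -1.62.

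The mixed cells each combined the sides in their own way. Cell 41, with the most genes detected (6502), had Wt1 at RPKM 31.4 and Tmem100 at 22.2 together with Sox9 at 205, Papss2 at 119, Dll1 at 77.2 and Dkk1 at 117. Cell 36 had Wt1 at 40.8 with Sox9 at 51.9 and Pou3f3 at 21.1, and none of Papss2, Dll1 or Dkk1 above 0.264. Cell 45 had no Wt1 (0.593) but Tmem100 at 156 and Tcf21 at 138, beside Sox9 at 84.7, Papss2 at 181, Dll1 at 365 and Dkk1 at 196. Whether these chambers held 1 cell or more was not tested from the values.

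Other cells paired Wt1 with a single one of the 5 distal genes of the wider definition. Of the 15 distal vesicle genes, 4 to 6 were positive in cells 12, 21, 30, 44 and 54. Cell 30 had Wt1 at 393 with Dll1 at 362, and no Sox9, Pou3f3 or Papss2. Papss2 accompanied Wt1 in cells 44 (Wt1 129, Papss2 502), 54 (276 and 66.5), 12 (29.2 and 75.9) and 21 (131 and 78.3). These were low in Sox9, which reached 13.4 in cell 21 and at most 0.238 in the other 3. Inside the class table Wt1 (21.5) was positive together with Papss2 (357) and Dll1 (30.6) in cell 23, and with Dll1 alone in cell 22 (Wt1 149, Dll1 71.6).

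Cells 3 and 37 were positive for none of Wt1, Sox9 and Pou3f3. Cell 3 had Dll1 at 107 and 16 of 20 S-phase genes positive, with Wt1 at 0.514 and Tmem100 at 0. Cell 37 had the highest Pax8 level of all (1160) and Tmem100 at 361, with Wt1 at 0.833 and each of the 5 distal genes at most 0.246. It had 3 S-phase genes positive. These cells were vesicle cells by Pax8 alone.

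Across all genes, outside and inside cells were compared by the difference in mean log2(RPKM + 1), outside minus inside, over 7700 genes with a mean RPKM of at least 1 and detection in at least 10 cells. This scale understates the change of low genes. A difference of 1 or more counts as called here, with no test behind it. By this measure 328 genes were higher outside (4.26%) and 527 higher inside (6.84%), with a median over all genes of -0.07. Of the 24 genes with the largest differences, named below, 24 had an SD over cells in at least 1 of the groups that was larger than the difference.

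The 4 genes with the largest excess in outside cells were expressed in some outside cells and nearly absent from most inside cells. Dhrs3, a retinaldehyde reductase (chromosome 4, 144482730 to 144517548, mm9), had a median RPKM of 9.16 (0 to 1698) outside and 0.465 (0 to 131) inside. It was detected in 16 of 22 and 9 of 28 cells, and the difference was 2.83. Timp3, an inhibitor of matrix metalloproteinases (chromosome 10, 85763157 to 85812250), was detected in 14 of 22 outside cells (highest 169) and 3 of 28 inside cells (highest 85.1), a difference of 2.73. Efna1, the ligand ephrin-A1 (chromosome 3, 89075652 to 89084873), was detected in 12 of 22 and 5 of 28 cells, a difference of 2.59. Btg2 (chromosome 1, 135971442 to 135975732) was detected in 12 of 22 and 7 of 28 cells, a difference of 2.46.

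The podocyte-like cells carried part of this excess. The differences without cells 2, 10 and 34 were 2.44 for Dhrs3, 2.56 for Timp3, 2.39 for Efna1 and 1.37 for Btg2. Dhrs3 was high in cell 2 (1698) and cell 10 (667) and low in cell 34 (0.653), and it was also high in cells 28 (584), 44 (527) and 14 (461). It was high as well in all 7 cells below the Pax8 threshold, at 389 to 946. Among those 7, Timp3 stood at 169 in cell 13 and 273 in cell 53, and at most at 0.132 in the rest. The next genes were Iqcb1 (2.26), a ciliary protein, Zscan21 (2.24), Gstm1 (2.23), a glutathione transferase, Scamp2 (2.21), Abcg2 (2.17), an efflux transporter, Anxa5 (2.06), a phospholipid-binding annexin, Aaas (2.05) and Nsmce1 (2.03).

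Among genes higher in inside cells, Fam136a, which encodes a mitochondrial protein, led. It had a median of 130 (0 to 878) inside and 5.87 (0 to 248) outside, a difference of -2.94. Apoo, a subunit of the complex that shapes the mitochondrial inner membrane, was detected in 23 of 28 inside and 9 of 22 outside cells, a difference of -2.78. Ssr4, a subunit of the translocon-associated complex of the endoplasmic reticulum, differed by -2.51, and the sorting nexin Snx3 by -2.44. Tcea1, a transcription elongation factor, was detected in all 28 inside and in 19 of 22 outside cells, a difference of -2.24. Plp2 (-2.38), Znf512b (-2.36), S100a1 (-2.33), Med31 (-2.24), Shcbp1 (-2.18), Bccip (-2.15) and Acot13 (-2.14) followed. Leaving out cells 2, 10 and 34 gave 388 genes higher outside (5.17% of 7501) and 506 higher inside (6.75%).

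**Figure D4:**
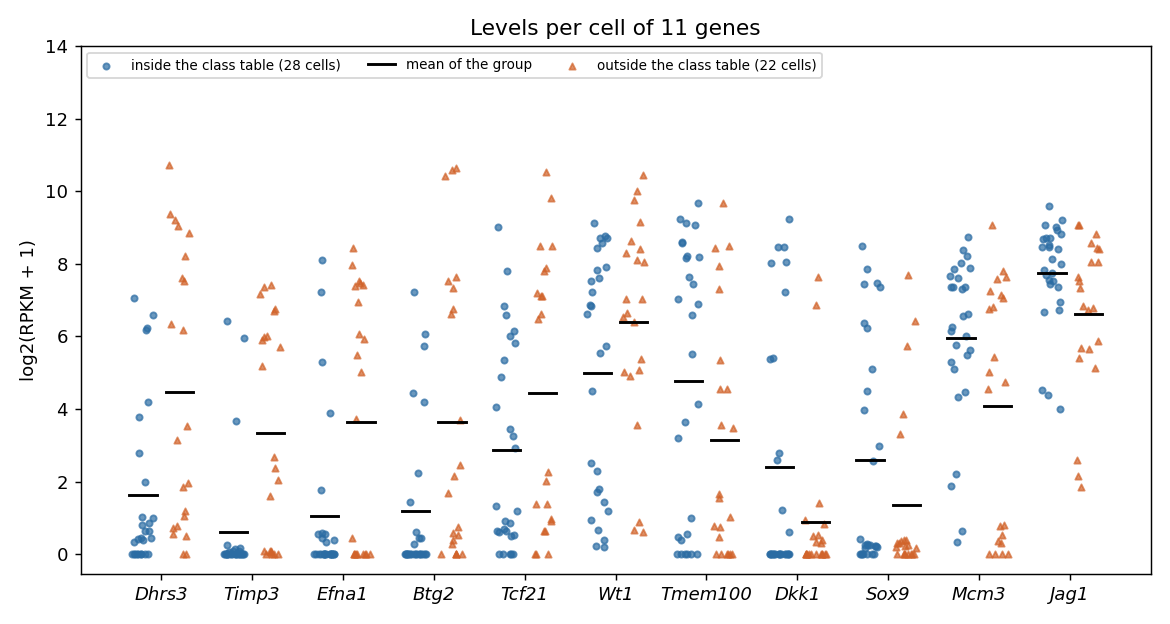
Each point is 1 cell, with log2(RPKM + 1) on the vertical axis for 11 genes, inside cells as circles at the left and outside cells as triangles at the right of each gene, and the mean of each group as a bar. Dhrs3, Timp3, Efna1 and Btg2 are near 0 in most inside cells, Dkk1 and Sox9 are near 0 in most cells of both groups, and the points of both groups overlap for every gene.

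Of the 11 proximal vesicle genes tested, 3 were called higher outside, 1 lower, and the median difference was 0.31. Beside this and each list count that follows over all cells stand 4.26% of all genes higher and 6.84% lower, with a median of -0.07. Where cells 2, 10 and 34 are left out of such a count, the shares are 5.17% and 6.75%, with a median of -0.03. The 3 were transcription factors, of which Wt1 and Foxc2 are class genes, as is Tmem100. Wt1 (chromosome 2, 104966686 to 105013771) had a median of 114 (0.514 to 1382) outside and 75.1 (0.14 to 560) inside, a difference of 1.4. Tcf21 (chromosome 10, 22537079 to 22539934) had medians of 45.8 (0 to 1474) and 1.41 (0 to 512), a difference of 1.58, and Foxc2 differed by 1.28. Tmem100 (chromosome 11, 89891662 to 89897819) went the other way, at -1.60. None of the 3 was called without cells 2, 10 and 34, at 0.82, 0.84 and 0.83, while Tmem100 remained at -1.17.

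Of the 12 distal vesicle genes tested, 4 were called lower outside and none higher, with a median of -0.91. Dkk1 was detected in 3 of 22 outside and 11 of 28 inside cells, a difference of -1.51. Sox9, a transcription factor of the distal vesicle, was detected in 5 of 22 and 12 of 28 cells, a difference of -1.25. Jag1, a Notch ligand, was detected in all 50 cells, with medians of 136 (2.63 to 538) outside and 267 (15.0 to 772) inside, and differed by -1.13. Dll1 differed by -1.04. All 4 are class genes, which the authors chose on the inside cells. Sox9 or Pou3f3 alone was positive in 10 of 28 inside and 2 of 22 outside cells. The count thus restates the choice of genes and the make-up of the groups in part. Without cells 2, 10 and 34, Jag1 (-0.58) and Dll1 (-0.78) were no longer called and the median was -0.58.

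Among 14 early vesicle genes tested, 2 were lower outside and none higher (median -0.11). Wnt4, the signal that drives the mesenchyme to epithelium transition, was detected in 7 of 22 outside and 12 of 28 inside cells, a difference of -1.36, and Jag1 was the other. Lhx1, a transcription factor needed for vesicle patterning, had medians of 46.7 and 67.5 and differed by -0.82, which is under the threshold. Among 5 nephron progenitor genes tested, none was called (median -0.59). Six2, the factor that keeps progenitors self-renewing, did not pass the filter. It was detected in 4 outside cells and 1 inside cell, with highest values of 17.9 and 1.04. Cited1, another progenitor gene, was detected in 2 cells of each group.

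Of 9 podocyte genes that passed the filter, Cd2ap, a slit diaphragm adaptor, was higher outside (1.42) and Actn4, an actin crosslinker, lower (-1.23), with a median of 0.58. The genes that marked cells 2, 10 and 34, such as Nphs1, Synpo and Podxl, were detected in too few cells to pass. Of 19 S-phase genes, 3 were lower outside and none higher, with a median of -0.41: Mcm3 (-1.87), a subunit of the replicative helicase, Rrm1 (-1.35) and Slbp (-1.10). Without cells 2, 10 and 34 only Mcm3 was called, at -1.26, and the median of the list was 0.01. Of 22 G2 and mitosis genes, the checkpoint kinase Bub1b was higher (1.73) and none lower, with a median of -0.15. With those 3 cells left out, 3 were higher and none lower, with a median of 0.13, beside 5.17% and 6.75% of all genes.

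Signalling genes showed no common direction. Of 11 Notch genes 2 were lower (Jag1 and Dll1, both class genes), and of 17 FGF and BMP genes 1 was lower. Of 14 Wnt genes 2 were higher and 3 lower. Without cells 2, 10 and 34 the Wnt counts were 1 and 2 of 12, beside 5.17% and 6.75% of all genes. The Wnt antagonist Sfrp2 differed by -1.58, or by -0.71 without cells 2, 10 and 34. Id3, a target of BMP signalling, differed by -1.18, or by -0.91 without them, which is under the threshold. Of 14 matrix and adhesion genes, Sparc, a collagen-binding protein, was at 1.00 with medians of 379 and 186, and at 0.86 without those cells.

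The comparison was also restricted to Wt1-positive cells, 18 outside and 17 inside, a choice made after the values were seen. Of these, 7 outside and 2 inside cells also had at least 1 of the 5 distal genes positive. Of 7812 genes, 540 were higher outside (6.91%) and 837 higher inside (10.7%), with a median of -0.09. Without cells 2, 10 and 34 these were 607 (8.05% of 7537) and 726 (9.63%). Of the 429 proximal class genes tested, 129 were lower in the outside cells and 7 higher, and of 203 distal class genes 53 were higher and 3 lower. Those class gene counts follow in part from the choice of class genes on inside cells.

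The genes lowest in Wt1-positive outside cells, after Tmem100 (-4.57), were Snx3 (-3.18), S100a1 (-3.15), the copper transporter Slc31a1 (-3.05), Ssr4 (-3.02), Shcbp1 (-3.00) and Fam136a (-2.88). Plxnb2, a semaphorin receptor, had medians of 1.96 outside and 39.6 inside, a difference of -2.66. The genes highest there were again led by Dhrs3 (3.02), with B230219D22Rik (2.99), Timp3 (2.77) and Btg2 (2.59) next. Timp3 was detected in 13 of 18 outside and 3 of 17 inside cells. With cells 2, 10 and 34 left out, Dhrs3 stood at 2.59, Timp3 at 2.63 and Btg2 at 1.36.

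Egr1, an immediate early transcription factor, was higher in the Wt1-positive outside cells by 2.20, with a median of 24.5 (0 to 820) against 0.356 (0 to 191). The difference was 1.48 without cells 2, 10 and 34. Of 7 immediate early genes tested, 3 were higher (Egr1, Btg2 and Fos) and none lower, beside 6.91% of all genes higher. With those cells left out, 2 of 6 were higher, beside 8.05% of all genes, and Fos, at 0.57, was not. Over all outside and inside cells, 1 of 7 immediate early genes was higher and 1 lower, beside 4.26% and 6.84% of all genes. Without cells 2, 10 and 34 these were 1 and 1 of 6, beside 5.17% and 6.75% of all genes. Junb did not pass the filter, and stood at 248 in cell 2 and 44.4 in cell 10 with at most 7.16 in the other Pax8-positive cells. Cells were dissociated with trypsin before capture, and the part of that step in these transcripts was not tested.

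Within Wt1-positive cells, 2 of 13 early vesicle genes and 1 of 10 Notch genes were lower outside and none higher, and of 15 FGF and BMP genes 2 were higher and 1 lower, beside 6.91% higher and 10.7% lower of all genes. Of 11 proximal vesicle genes, 3 were higher and 2 lower (median -0.08). Of 12 Wnt genes 1 was higher and 2 lower, of 8 distal vesicle genes 1 was higher, and of 5 nephron progenitor genes 2 were lower. When cells 2, 10 and 34 were left out, 8.05% of all genes were higher and 9.63% lower. The FGF and BMP count was then 5 higher and 1 lower, and the proximal vesicle count 1 higher and 3 lower (median -0.46). The Wnt count was then 2 higher and 1 lower of 10. The single genes that follow are called members of these and other lists, of which Foxc1, Foxc2 and Papss2 were chosen after their values were seen. Wnt4 (-1.51), the cadherin Cdh4 (-1.81), the progenitor cofactor Eya1 (-1.49), the Notch target Hey2 (-1.43) and Id3 (-1.89) were lower outside. Tcf21 (1.68), Foxc1 (1.29), Foxc2 (1.22), Papss2 (1.31), the FGF target Dusp6 (1.35), the receptor Fgfr2 (1.04) and Lgr4 (1.47), a receptor that amplifies Wnt signals, were higher. Tcf21 (0.76) and Foxc2 (0.79) were no longer called without cells 2, 10 and 34. Foxc1 was detected in 9 of 18 outside cells (highest 47.3) and in 2 of 17 inside cells (highest 1.92).

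The S-phase list had 7 of 19 genes lower and none higher in Wt1-positive outside cells, with a median of -0.79. Beside this count and that of the G2 and mitosis list stand 6.91% of all genes higher and 10.7% lower. Mcm3 (-1.87) and Gins2 (-1.74) led. Without cells 2, 10 and 34, 8.05% of all genes were higher and 9.63% lower. Of the S-phase genes 5 of 19 were then lower, and the median was -0.04. Most of the shift of the median thus came with those 3 cells, but not all of the lower genes. The G2 and mitosis list had 2 of 22 lower (Kif20a and Kif11) and a median of -0.22, but 3 higher, 1 lower and a median of 0.21 without those cells.

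Markers of other cell types were counted in the same way. Of 16 stromal genes, 11 had a row, and 0 to 6 were positive per outside cell and 0 to 3 per inside cell (median 1 in both). Aldh1a2, a retinoic acid synthesis gene on that list, was positive in 13 outside and 17 inside cells. The highest count was in outside cell 28, with Dcn at 173, Alx1 at 225, Col1a2 at 57.7, Col3a1 at 39.3, Col1a1 at 33.2 and Meis1 at 107, beside Wt1 at 262 and Tcf21 at 362. Its smooth muscle genes Acta2 and Myl9 stood at 397 and 798, and their part in its differences was not tested. Of 10 mural and smooth muscle genes 6 had a row, and 5 of 22 outside and 10 of 28 inside cells had 2 or more detected. Acta2 was positive in 7 outside and 4 inside cells, Myl9 in 4 and 6, and Tagln in 3 of each (highest 882). Immune genes had a median of 0 positive in each group, but 2 or more of the 14 were detected at RPKM 1 in 13 of 22 outside and 6 of 28 inside cells. Among Wt1-positive cells these were 12 of 18 and 4 of 17, and their part in the differences was not tested. C1qb, a macrophage complement gene, was positive in outside cell 41 (38.0) and inside cell 56 (129), while Lyz2 reached at most 3.10 and 3.59. Of 10 endothelial genes 3 had a row, and 0 of 22 outside and 0 of 28 inside cells had 2 of them detected. Proximal tubule and ureteric bud genes had a median of 0 positive in both groups.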

How the data were processed

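The authors deposited RPKM values, not logged, of 12087 genes in 57 cells, per the file headers. For 787 genes a second deposited table adds the authors' own signed proximal-to-distal fold over 28 cells, read here as a score with an unstated formula. The authors also deposited, for each gene, a count of the cells above RPKM 3, which matched the values throughout and has a minimum of 2. TopHat 1.4.1, DESeq and the build mm9 are named in the submitters' processing notes, with no role given. Members and lists were chosen with earlier results of these data known.

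Genes were keyed by gene identifier. Differences are means of log2(RPKM + 1), outside minus inside, for genes with mean RPKM of at least 1 and RPKM 1 or more in at least 10 cells (7 among Wt1-positive cells). No p-value was computed. Ward clustering used scipy 1.17.1. Named genes were the 12 largest differences in each direction, the 3 largest per list, fixed vesicle genes and the 8 leading genes per cluster; Papss2, H19, Ptpro, Col4a4, Itga3, Junb, Foxc1, Foxc2 and the stromal genes of cell 28 were added after their values were seen. Depth was estimated from the smallest repeated step of RPKM times exon length, with lengths from GENCODE M21, a later build, so it is approximate. The difference script was tested on simulated data. No doublet caller was run. Some genes are not reported here.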

Additional observations from a re-analysis of the deposited data

How the results depend on the processing

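The 22 and 28 cells come from 1 pool, so no setting gives an error between animals, and depth limits levels near RPKM 1 most. Counts of genes past a difference of 1 moved most with the pseudocount: 849 higher outside and 1299 higher inside at 0.1, and 32 and 57 at 10. In Wt1-positive cells they were 1173 and 1629 at 0.1, and 62 and 131 at 10. With a difference of at least 2, 13 genes were higher outside and 17 inside. Other filters, Pax8 thresholds, a common median and the left-out cells kept these counts within 1.5 times. With 5 distal genes 0% of inside cells were positive for neither side and 31.8% of outside cells for both, and with positivity at RPKM 50 no outside cell (0%) was positive for both. On the marker lists, which were added after seeing the data, 21.4% of inside cells lay in the middle range. The nephron progenitor median was -0.93 at a pseudocount of 0.1. Inside and outside cells had medians of 5963 and 5819 genes above 0, and 3479 and 3406 at RPKM 5. With 1000 variable genes or 3 clusters, 0% of outside cells were in a cluster without an inside cell. Of 32 differences of single genes under 288 settings, 284 kept their sign, and none of the 24 that reached 1 changed it. Leaving out cell 41, cells 2, 10 and 34, and the Wt1-positive comparison were chosen after seeing the data. No paired analysis was possible because the labels give 1 group of cells from 1 pool.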

Other observations

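Of 5 loop and distal tubule genes tested, Wfdc2 (-1.25) and the adhesion molecule Epcam (-1.18) were lower outside and none higher, with a list median of -0.57, beside 6.84% of all genes lower. Epcam was detected in 4 of 22 outside and 10 of 28 inside cells. Of 12 glycolysis genes and 8 heat shock genes, none differed by 1 in either direction, with medians of -0.19 and 0.18. Of 8 stress and cell death genes, Trp53inp1, a p53 target, was higher outside (1.04) and 1 other was lower, with a median of 0.15. Without cells 2, 10 and 34, none of 7 was higher and 1 was lower, beside 5.17% and 6.75% of all genes. Among 15 housekeeping genes Sdha was higher (1.51) and Tbp lower (-1.12).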
